A study of Mus musculus with 18 samples.

Results

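Xkr4, Gm19938, Trank1, Abca8a, Tmeff2 and Zmat4 are 6 of the 55335 genes counted in nuclei of mouse forebrain at embryonic day 14 (E14), in embryos with or without functional copies of the transcription factor gene Myt1l. They were chosen by their measured RNA, as genes that had appeared lower in homozygous mutants (KO) than in wild-type (WT) embryos in excitatory neuron or Cajal-Retzius cell nuclei. That contrast in those 2 classes is therefore described here without a test, and tests are given only for heterozygotes (Het) and for the other classes of nuclei. In the counts of excitatory neuron-like nuclei, Xkr4, Gm19938, Trank1, Abca8a and Tmeff2 had lower mean levels in KO than in WT. Zmat4 did not: its mean there was higher in KO, and in Cajal-Retzius-like nuclei it rested on so few molecules that its direction changed with the animals included.

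All 9 embryos came from the C57BL/6 line labelled MYT1L S710fsX, which carries a frameshift allele of Myt1l. WT embryos have no copy of the allele, Het embryos 1 copy and KO embryos 2 copies, with 3 embryos per genotype, drawn from 3 litters. Forebrains were frozen, and nuclei were fixed and barcoded by splitting and pooling in plates, in which no droplet is used. Each embryo has libraries from 2 runs, which were summed, and the embryo is the replicate (n = 3 per genotype). The labels do not say what a run is. The genotypes were taken from the sample titles, since the separate genotype tag of run 1 reads WT for all 9 libraries, while that of run 2 matches the title in 9 of 9. The allele lies in the coding sequence and Myt1l RNA is still made, so the count of Myt1l does not mark the genotype by its absence: in excitatory neuron-like nuclei it was 1951 to 2223 CPM (the count of a gene scaled to the same total in every sum) in the 3 WT, 2246 to 2502 in the 3 Het and 2578 to 2874 in the 3 KO embryos.

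MYT1L is a zinc finger protein that neurons begin to make as they leave the cell cycle, and it is known both for holding back genes of other cell fates and for activating genes of maturing neurons. Excitatory neurons of the embryonic cortex arise from radial glia through intermediate progenitors and settle in layers, inhibitory neurons migrate in from the ventral forebrain, and Cajal-Retzius cells are early neurons of the cortical surface that secrete reelin. The 6 genes do not form 1 pathway. Xkr4 encodes a membrane protein of the XK-related family, some of whose members move phospholipids between the leaflets of the plasma membrane. Gm19938 is a noncoding transcript from inside Xkr4. Trank1 encodes a large protein with tetratricopeptide and ankyrin repeats, Abca8a a transporter of the ABCA family, which moves lipids across membranes, Tmeff2 a transmembrane protein with follistatin-like and EGF-like domains, and Zmat4 a protein with matrin-type zinc fingers, a kind that can bind double-stranded RNA.

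After filtering, 193943 nuclei remained, 14839 to 25889 per embryo, with a median of 2533 unique molecules (UMIs) per nucleus, and 43155049 to 73876797 UMIs per embryo. They were grouped into 33 clusters, and clusters were named from sets of known marker genes: among the neurons, 49857 nuclei were excitatory neuron-like, 43552 inhibitory neuron-like and 1984 Cajal-Retzius-like, and of the other nuclei 25551 were excitatory intermediate progenitor-like, 42192 radial glia-like, 8053 inhibitory progenitor-like and 318 microglia and macrophage-like. These are the 7 classes compared, and clusters with 21391 nuclei stayed unnamed. Of the barcodes, 159 occurred in both runs of 1 embryo and 1709 in more than 1 embryo. UMIs were summed per embryo and class and are given as CPM of that sum. A value can therefore fall because fewer nuclei of the class express the gene or because each holds less of its RNA. Shares of nuclei with a UMI are given beside it, but in sparse counts less RNA per nucleus also lowers the share, so they do not separate these. One embryo stood apart by sex: Xist, the noncoding RNA of the inactive X chromosome of females, was at 262 CPM in the excitatory neuron-like nuclei of WT embryo 3 and below 1 CPM in the other 8 embryos, so results were also read without that embryo. A gene was called where edgeR's quasi-likelihood test across all genes of a class gave an adjusted p (Benjamini-Hochberg) under 0.05 and a log2 change above 0.2 in size.

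The positions of the genes and, where the reference held them, their promoters are shown first, because Gm19938 shares its ground with Xkr4 and because a promoter is where transcription begins. In the GENCODE annotation of GRCm38, Xkr4 spans 466 kb of the minus strand (chr1:3205901-3671498) and Gm19938 11.6 kb of the same strand (chr1:3647309-3658904). Gm19938 lies wholly in intron 1 of the longest Xkr4 transcript and overlaps none of its exons. Trank1 lies at chr9:111311739-111395775 on the plus strand, Abca8a at chr11:110025634-110095978 on the minus strand, Tmeff2 at chr1:50900647-51187270 on the plus strand and Zmat4 at chr8:23636019-24156585 on the plus strand. The RefSeq promoter set (GRCm38.p6) held 3 of the 6 genes, and the 250 bases before each start are printed 5′ to 3′ on the strand of the gene: chr9:111311489-111311738 for Trank1, chr11:110095938-110096187 for Abca8a and chr1:50927273-50927522 for Tmeff2. Capitals mark CACGTG, the palindromic E-box.
Trank1: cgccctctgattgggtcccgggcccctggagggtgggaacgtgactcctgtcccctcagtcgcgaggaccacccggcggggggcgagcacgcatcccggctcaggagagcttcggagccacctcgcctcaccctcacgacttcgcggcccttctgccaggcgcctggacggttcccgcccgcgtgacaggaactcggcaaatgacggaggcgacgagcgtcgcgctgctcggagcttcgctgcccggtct
Abca8a: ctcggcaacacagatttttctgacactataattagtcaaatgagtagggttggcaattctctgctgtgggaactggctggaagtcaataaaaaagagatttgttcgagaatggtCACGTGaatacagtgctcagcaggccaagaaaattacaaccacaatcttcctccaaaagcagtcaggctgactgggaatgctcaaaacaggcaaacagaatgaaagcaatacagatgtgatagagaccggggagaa
Tmeff2: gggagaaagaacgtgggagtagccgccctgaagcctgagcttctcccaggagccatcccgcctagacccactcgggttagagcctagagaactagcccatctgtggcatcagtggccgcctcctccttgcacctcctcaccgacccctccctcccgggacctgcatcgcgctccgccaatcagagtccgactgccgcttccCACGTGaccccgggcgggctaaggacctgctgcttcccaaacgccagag

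AAGTT, the core of the sequence that MYT1 family zinc fingers bind, was searched on both strands and was found 0 times in each of these 3 windows, while 35.3% of the 32851 promoter windows of the same length held it. This says only that these letters are not in these windows. CACGTG, which was searched after the letters had been seen, stood once in the Abca8a window, starting 136 bases before the start, and once in the Tmeff2 window, 49 bases before it, and 6.02% of all windows held it. The Trank1 window had 70.8% G and C, the Tmeff2 window 64.8% and the Abca8a window 43.2%. In the GENCODE annotation Tmeff2 and Abca8a also begin upstream of the RefSeq starts used here, so that their printed windows lie partly or wholly inside the annotated genes.

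In WT embryos 5 of the 6 genes stood highest in inhibitory, not excitatory, neuron-like nuclei, and Abca8a in excitatory neuron-like nuclei. Xkr4 was at 1324 ± 82.3 CPM (SD, n = 3) in inhibitory neuron-like nuclei, 555 ± 57.4 in Cajal-Retzius-like and 483 ± 36.5 in excitatory neuron-like nuclei, and the last 2 classes overlapped. It was at 329 ± 18.8 CPM in inhibitory progenitor-like nuclei and under 80 in every WT embryo in radial glia-like and excitatory intermediate progenitor-like nuclei. Gm19938 was also highest in inhibitory neuron-like nuclei, with 56.4 ± 4.14 CPM there and 21.8 ± 3.04 in excitatory neuron-like nuclei. Set against the order of Xkr4, its excitatory and Cajal-Retzius-like means changed places. Its radial glia-like and excitatory intermediate progenitor-like means did so as well. In each of these pairs the levels overlapped.

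Trank1 was at 44.6 ± 11.8 CPM in inhibitory neuron-like nuclei and at 10.6 ± 3.69 in excitatory neuron-like nuclei, which overlapped with the Cajal-Retzius-like level of 8.91 ± 4.58. Tmeff2 was at 607 ± 48.3 CPM in inhibitory and 138 ± 18.5 in excitatory neuron-like nuclei, and in radial glia-like nuclei it was at 81.4 ± 3.83 CPM. Its Cajal-Retzius-like level, 24.6 ± 12.5 CPM, was the lowest of the 7 classes. That level overlapped with the 31.5 ± 11.1 CPM of microglia and macrophage-like nuclei. Zmat4 was at 50.2 ± 1.07 CPM in inhibitory neuron-like nuclei, and its levels in Cajal-Retzius-like, excitatory neuron-like and inhibitory progenitor-like nuclei overlapped in order, from 14.4 ± 6.89 to 9.57 ± 1.49. For these 5 genes the inhibitory neuron-like level lay above that of the next class in every WT embryo.

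Abca8a had another pattern. It was highest in excitatory neuron-like nuclei (14.3 ± 1.54 CPM), then in radial glia-like nuclei (5.57 ± 0.199), and both levels stood apart from the class below. In inhibitory neuron-like nuclei it was at 1.32 ± 0.203 CPM, and in Cajal-Retzius-like nuclei no embryo of any genotype had more than 1.38 CPM. It gave no UMI in any of the 318 microglia and macrophage-like nuclei, which allows a share of up to 0.943% of nuclei with a UMI, counting error only, and sets no limit on the nuclei that express it.

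**Figure D1:**
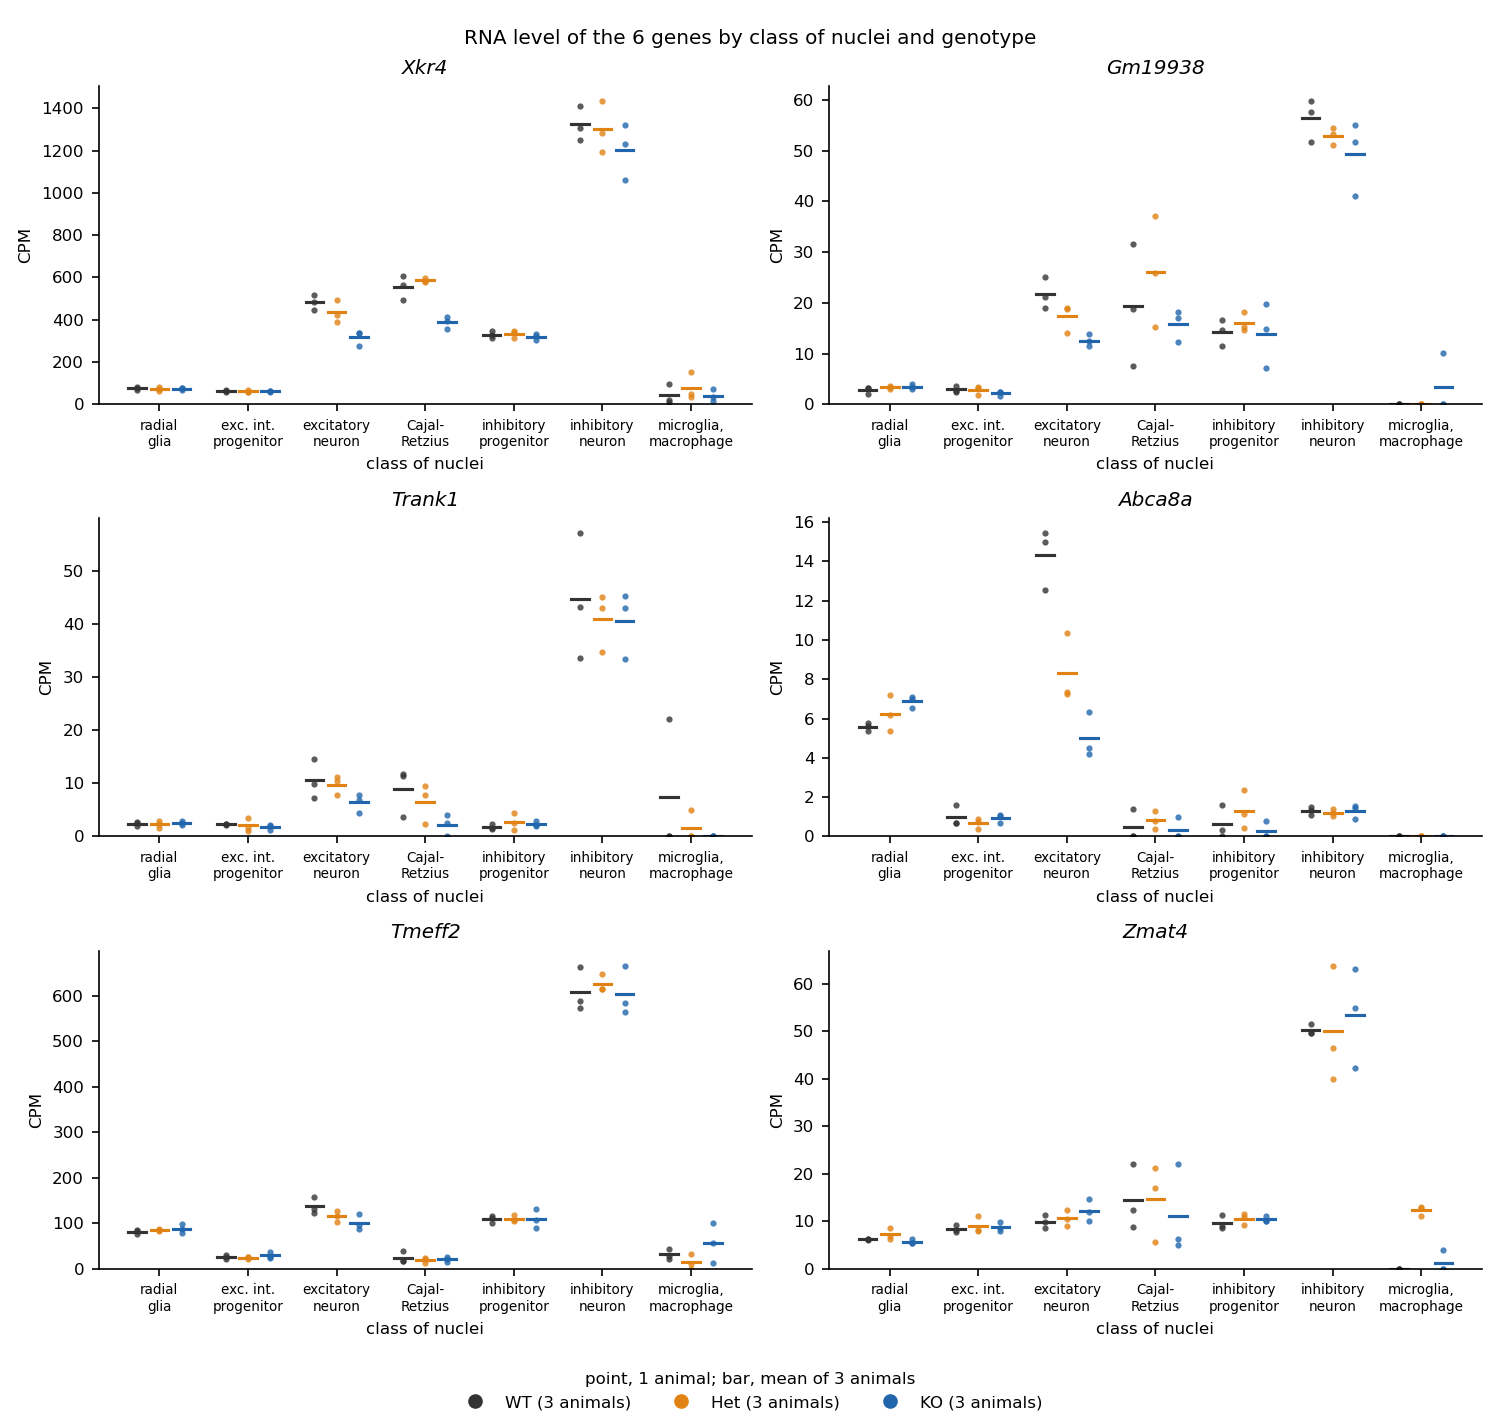
CPM of each of the 6 genes (y axes, each gene on its own scale) in the classes of nuclei (x axis), with 1 point per embryo and a bar for the mean of 3 embryos per genotype (WT, Het, KO). In WT, 5 genes stand highest in inhibitory neuron-like nuclei and Abca8a in excitatory neuron-like nuclei (14.3 CPM).

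Abca8a had the largest KO difference of the 6 genes in excitatory neuron-like nuclei, with Het embryos in between. The 3 WT embryos had 15.4, 12.5 and 15.0 CPM, the 3 Het embryos 10.3, 7.25 and 7.35, and the 3 KO embryos 6.32, 4.18 and 4.52. The 3 genotypes did not overlap at all: every KO embryo lay below every Het embryo, and every Het embryo below every WT embryo. The KO mean was 35.0% of the WT mean, the log2 change in the fit was -1.51 ± 0.16 (SE), and by size this put Abca8a at place 4 from the bottom of the 18596 genes tested.

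Xkr4 was lower in KO by a smaller factor but from many more molecules. The WT embryos had 519, 446 and 483 CPM, the Het embryos 421, 390 and 493 and the KO embryos 339, 275 and 337. All 3 KO embryos lay below all WT and all Het embryos, whereas Het and WT overlapped. The KO mean was 65.7% of the WT mean, with a log2 change of -0.59 ± 0.087.

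Gm19938, inside Xkr4, went the same way. Its levels were 25.0, 19.0 and 21.2 CPM in WT, against 19.1, 14.1 and 18.8 in Het and 12.5, 11.4 and 13.8 in KO. The KO embryos again lay below all WT and all Het embryos, at 57.7% of the WT mean and with a log2 change of -0.77 ± 0.12.

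Trank1 varied most between embryos of 1 genotype. It was at 14.5, 7.23 and 9.90 CPM in WT, against 10.4, 7.74 and 11.1 in Het and 7.84, 4.51 and 6.96 in KO. The highest KO embryo lay above the lowest WT embryo, so the groups overlapped, and the log2 change was -0.68 ± 0.23. It was -0.40 without WT embryo 1 and -0.89 without WT embryo 2. Embryos with the same replicate number moved together in these data, and within the 3 same-numbered pairs KO was at 54.0%, 62.4% and 70.3% of WT.

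Tmeff2 was at 159, 123 and 131 CPM in WT, against 127, 103 and 116 in Het and 120, 97.0 and 86.9 in KO. The KO embryos lay below all WT embryos, by a narrow margin, and overlapped with Het. The KO mean was 73.5% of the WT mean, and the log2 change was -0.42 ± 0.11.

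Zmat4 was at 11.3, 8.59 and 9.79 CPM in WT, against 10.5, 8.93 and 12.4 in Het and 10.1, 12 and 14.6 in KO. The groups overlapped, and 2 of the 3 KO embryos lay above all WT embryos. The log2 change was 0.35 ± 0.14, and within the same-numbered pairs KO was at 89.3%, 140% and 149% of WT. Zmat4 is therefore reported as a gene that was not lowered in excitatory neuron-like nuclei. Without WT embryo 3, which had Xist, the log2 changes were -1.48 for Abca8a, -0.78 for Gm19938, -0.71 for Trank1, -0.59 for Xkr4, -0.46 for Tmeff2 and 0.34 for Zmat4.

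Of the 6 genes, 3 were called lower in this class (Abca8a, Xkr4 and Gm19938), where 0.731% of all 18596 genes tested were called lower. With the replicate number as a block in the fit, 5 were called lower (Trank1 and Tmeff2 as well), against 3.79% of all genes. Both counts are fixed by how the genes were chosen and are given for completeness. Among the called genes of the 6 the smallest change was that of Xkr4 (-0.59), and nearest outside the call were Trank1 (-0.68) and Tmeff2 (-0.42). By size of change the lowered members were spread widely, with Gm19938 at place 142 from the bottom, Trank1 at 227, Xkr4 at 347 and Tmeff2 at 817.

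In excitatory neuron-like nuclei some marker sums of other classes also moved with genotype. The 9 markers of excitatory intermediate progenitors summed to 1705 to 1933 CPM in WT, against 1836 to 2258 in Het and 1995 to 2399 in KO, so that every KO embryo lay above every WT embryo, and all 9 markers were detected in each genotype. The 12 markers of inhibitory neurons summed to 506 to 529 CPM in WT and 535 to 584 in KO, and the 7 diencephalic neuron markers to 99.3 to 110 and 115 to 133. The sums follow the most abundant markers: the median log2 change of the single markers tested was 0.29 for excitatory intermediate progenitors and 0.22 for diencephalic neurons, but -0.17 over 11 inhibitory neuron markers. The excitatory neuron markers overlapped (13104 to 14607 CPM in WT, 13561 to 15248 in KO), as did those of microglia and macrophages (6.26 to 9.66 and 5.48 to 9.07), with Pf4 at 0 in WT and KO. No marker was called by itself without the replicate block. With it 8 of the 82 markers tested were called, where 8.19% of all genes were: the intermediate progenitor markers Elavl2, Unc5d and Eomes higher (0.32, 0.29 and 0.26), and 5 markers of radial glia, excitatory neurons, Cajal-Retzius cells and inhibitory neurons lower (-0.48 to -0.21). The part of these sums in the levels of the 6 genes was not tested.

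The shares of excitatory neuron-like nuclei with at least 1 UMI were lower in KO than in WT for the same 5 genes and higher for Zmat4. Abca8a was detected in 2.19% ± 0.012 of WT, 1.47% ± 0.19 of Het and 0.947% ± 0.19 of KO nuclei (SD, n = 3). Xkr4 was detected in 48.9%, 46.8% and 38.2%, Gm19938 in 5.67%, 4.80% and 3.47%, Trank1 in 2.43%, 2.46% and 1.65%, Tmeff2 in 17.3%, 16.3% and 14.9%, and Zmat4 in 2.31%, 2.53% and 2.96%. In nuclei with any Xkr4 the mean number of its UMIs was 2.91 in WT, against 2.84 in Het and 2.51 in KO, so for this gene both the share of nuclei and the count per positive nucleus were lower in KO. Less Xkr4 RNA in every nucleus would lower both, so these values do not tell fewer expressing nuclei from less RNA in each. With each nucleus thinned to 800 UMIs the Xkr4 shares were 24.9%, 22.6% and 17.4%, and the Abca8a shares 0.68%, 0.331% and 0.25%. In microglia and macrophage-like nuclei, which should lack these genes, Xkr4 gave a UMI in 5.61% of WT nuclei. Over all genotypes Xkr4 gave a UMI in 6.60% of these nuclei and Tmeff2 in 4.72%. The median depth over all genotypes was 2189 UMIs there, against 2863 in excitatory neuron-like nuclei.

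The excitatory neuron-like nuclei comprised 5 clusters, and the 6 genes were spread unevenly over them. The cluster led by Tfap2d had the weakest claim to its name. It was named with 3 of 11 excitatory neuron markers detected, the fewest allowed, against 7 to 10 in the other excitatory neuron-like clusters. Abca8a was concentrated in the cluster led by Hs3st3b1 and Rgs6, with 51.1, 42.2 and 53.7 CPM in WT, against 36.0, 31.4 and 29.0 in Het and 26.0, 14.8 and 13.9 in KO. The 3 genotypes stood apart there in the same order as in the whole class. In the cluster led by Nr4a3 and Slit3 its mean was 7.40 CPM in WT, against 2.87 in Het and 2.42 in KO, and in the other 3 clusters it stayed under 2 CPM in WT. In 1 of those, led by Cemip and Adamtsl3, it rested on 1.5 UMIs in WT and 7.17 in KO, too few to read.

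Xkr4 was lower in all 3 KO embryos than in all 3 WT embryos in each of the 5 clusters. These clusters hold the embryos and nuclei that entered the choice of the gene, so the 5 are not separate support. Its mean went from 779 to 562 CPM in the cluster led by Tfap2d, from 702 to 444 in the one led by Hs3st3b1, from 401 to 248 in the one led by Gm10862, from 308 to 243 in the one led by Nr4a3 and from 126 to 110 in the one led by Cemip. The log2 ratio of means ran from -0.20 in the cluster where Xkr4 was lowest to -0.69 in the Gm10862 cluster. Gm19938 was lower in all KO embryos in 4 of the 5 clusters, all but the one led by Cemip.

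Trank1 was mostly a gene of the Tfap2d cluster, with means of 38.1 CPM in WT, against 34.4 in Het and 26.5 in KO that overlapped between embryos. Tmeff2 was highest in the Hs3st3b1 cluster (269, 238 and 209 CPM), where KO and WT overlapped, and next in the Tfap2d cluster (181, 145 and 125), where all KO and all Het embryos lay below all WT embryos. Zmat4 had a higher mean in KO in 4 of the 5 clusters. The shares of excitatory neuron-like nuclei in the clusters were not all alike between genotypes. The Hs3st3b1 cluster held 20.2% ± 1.1 in WT and 18.2% ± 2.6 in KO, which overlapped. The Nr4a3 cluster held 21.8% to 23.0% in the WT embryos and 23.4% to 32.2% in the KO embryos, so that every KO embryo lay above every WT embryo. With the 5 clusters given equal weight in every embryo, the log2 ratios of KO to WT were -1.32 for Abca8a, -0.71 for Gm19938, -0.59 for Trank1, -0.53 for Xkr4, -0.37 for Tmeff2 and 0.32 for Zmat4. Each kept the sign it had in the whole class.

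**Figure D2:**
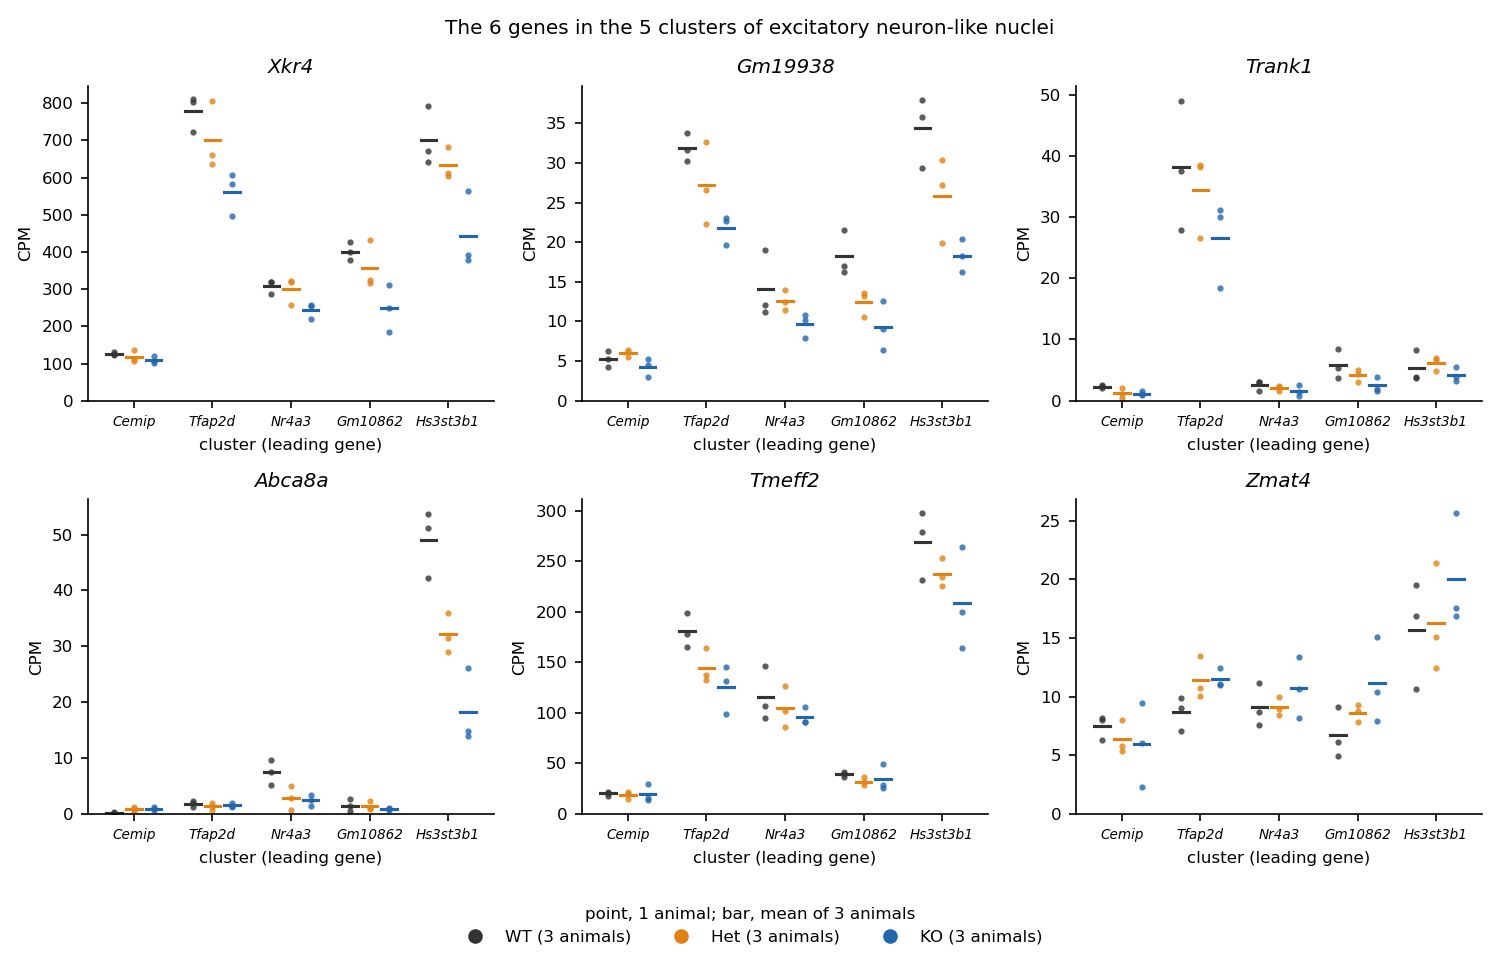
CPM of the 6 genes (y axes, own scale per gene) in the 5 excitatory neuron-like clusters (x axis, each named by its leading gene), with 1 point per embryo and genotypes by colour. Abca8a is concentrated in the Hs3st3b1 cluster, where the WT, Het and KO means are 49.0, 32.1 and 18.3 CPM, and Xkr4 is lower in KO in all 5 clusters.

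The 2 runs were read apart for the same class. They held mostly different barcodes, with 3152 to 5557 nuclei per embryo in run 1 and 11330 to 21565 in run 2. In run 1 Xkr4 had a log2 change in KO of -0.54 ± 0.13 and in run 2 of -0.59 ± 0.084, Gm19938 of -0.68 ± 0.22 and -0.76 ± 0.13, and Trank1 of -0.83 ± 0.35 and -0.63 ± 0.23. Abca8a had -1.0 ± 0.42 in run 1 and -1.54 ± 0.17 in run 2, and Tmeff2 -0.25 ± 0.19 and -0.44 ± 0.12. Zmat4 had 0.53 ± 0.17 and 0.27 ± 0.16. All 6 genes kept their sign in both runs. The level of Abca8a differed between the runs: the WT embryos had 3.09 to 10.3 CPM in run 1 and 14.3 to 17.2 in run 2, and the KO embryos 3.02 to 3.92 and 4.47 to 7.31. WT and KO overlapped for Abca8a in run 1 and stood apart in run 2, and no gene of the 6 was called in run 1 alone.

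**Figure D3:**
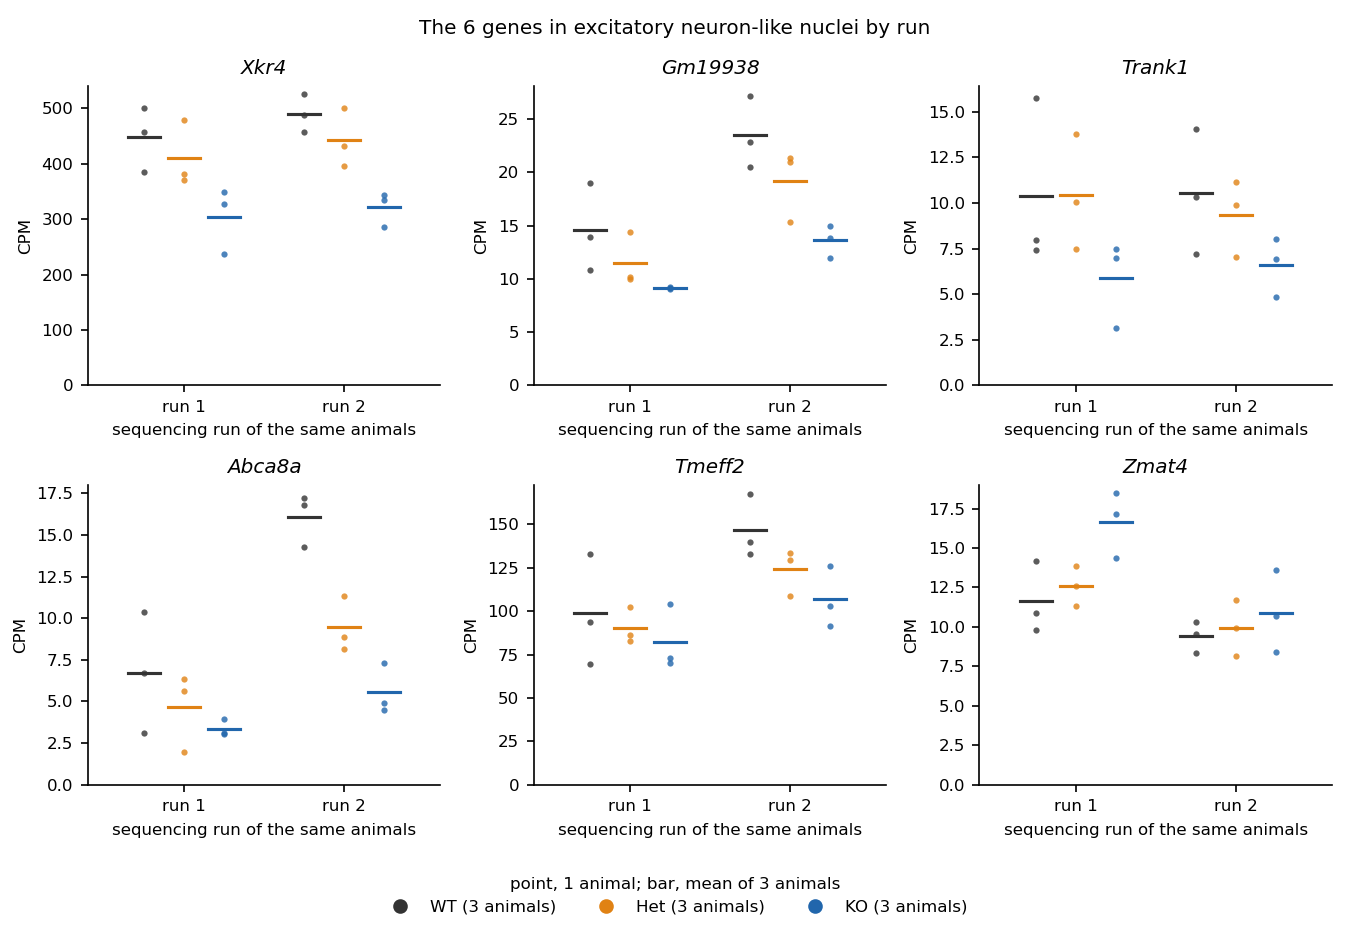
CPM in excitatory neuron-like nuclei for each of the 6 genes (y axes, own scale per gene), separately for run 1 and run 2 (x axis), with 1 point per embryo and genotypes by colour. The 5 genes with lower KO means in the summed data also have lower KO means in each run, and Zmat4 has higher ones. The axis title calls these sequencing runs, but the sample labels do not say what a run is.

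In Cajal-Retzius-like nuclei only Xkr4 rested on enough molecules to compare embryos. Its levels were 608, 494 and 564 CPM in WT, against 595, 584 and 580 in Het and 395, 354 and 415 in KO. All KO embryos lay below all WT and all Het embryos, at 69.9% of the WT mean, with a log2 change of -0.50 ± 0.10. The 3 Het embryos lay within the range of WT.

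The other genes were sparse in this class of 140 to 299 nuclei per embryo. Gm19938 was at 31.7, 18.9 and 7.59 CPM in WT and 12.3, 17.1 and 18.1 in KO, and Tmeff2 at 39.0, 17.9 and 16.8 and at 15.2, 20.5 and 25.8. Zmat4 was at 22.0, 8.70 and 12.3 CPM in WT and 5.07, 6.32 and 22.1 in KO. All 3 overlapped between WT and KO, and their log2 changes were -0.38 ± 0.42, -0.26 ± 0.34 and -0.24 ± 0.52. The Zmat4 value was -1.31 without KO embryo 3 and 0.29 without WT embryo 1, that of Gm19938 ran up to 0.16 and that of Tmeff2 up to 0.27 when 1 embryo was left out. Trank1 summed to 17 UMIs in WT and 6 in KO, and Abca8a to 1 and 1, and neither passed the filter on low counts. None of the 4 genes that passed was called lower, where 0.0573% of the 8727 genes tested were called lower and 0.160% were called in either direction, and with the replicate block Xkr4 was called.

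KO against WT in the remaining classes took no part in the choice of the genes and was tested. In inhibitory neuron-like nuclei, where 5 of the 6 are most abundant, none was called, and 0.0111% of the 17946 genes tested there were. Xkr4 was at 1251, 1309 and 1413 CPM in WT and 1320, 1063 and 1231 in KO, which overlapped, with a log2 change of -0.11 ± 0.093 (edgeR quasi-likelihood test, adjusted p = 0.911). Gm19938 was at 59.8, 51.8 and 57.7 CPM in WT and 55.1, 41.1 and 51.7 in KO, with -0.17 ± 0.094 (edgeR, adjusted p = 0.839). Those KO embryos were lower than the same-numbered WT embryo in 3 of 3 pairs for Gm19938 and in 2 of 3 for Xkr4.

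Trank1 (57.0, 33.6 and 43.2 CPM in WT, 45.2, 33.5 and 43.1 in KO) had a log2 change of -0.11 ± 0.16 in inhibitory neuron-like nuclei, and Tmeff2 (663, 588 and 572, and 666, 585 and 564) one of 0.02 ± 0.082. For Tmeff2 the embryos of each number were nearly equal, at 101%, 99.6% and 98.5% of WT. Zmat4 had 0.11 ± 0.15 and Abca8a, at about 1 CPM, -0.01 ± 0.27. All 4 overlapped between the genotypes. The difference in KO effect between excitatory and inhibitory neuron-like nuclei was not tested, because the excitatory contrast chose the genes.

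In radial glia-like nuclei none of the 6 was called, nor in excitatory intermediate progenitor-like or inhibitory progenitor-like nuclei, in each of which 0.00% of all genes tested were called by edgeR (an unadjusted p under 0.05 was reached by 434, 679 and 320 genes, and DESeq2 called 0, 1 and 0). At an unadjusted p under 0.05 there was 1 gene of the 6, in radial glia-like nuclei: Abca8a was at 5.76, 5.6 and 5.36 CPM in WT, against 6.17, 5.39 and 7.19 in Het and 6.56, 7.10 and 6.98 in KO. All 3 KO embryos lay above all 3 WT embryos, the opposite order to that in excitatory neuron-like nuclei, with a log2 change of 0.31 ± 0.13 (edgeR quasi-likelihood test, adjusted p = 1.00). Xkr4 in radial glia-like nuclei was at 79.3, 65.6 and 79.1 CPM in WT and 79.0, 65.5 and 76.1 in KO, a log2 change of -0.01 ± 0.10. Trank1 in excitatory intermediate progenitor-like nuclei was lower in all KO than in all WT embryos, at 78.5% of a WT mean of 2.29 CPM, with a log2 change of -0.37 ± 0.36 that was not called. Gm19938 overlapped between WT and KO in both classes. It was at 68.5%, 62.7% and 90.2% of the same-numbered WT embryos in excitatory intermediate progenitor-like nuclei and at 123%, 148% and 111% in radial glia-like nuclei, with log2 changes of -0.39 ± 0.29 and 0.35 ± 0.20.

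**Figure D4:**
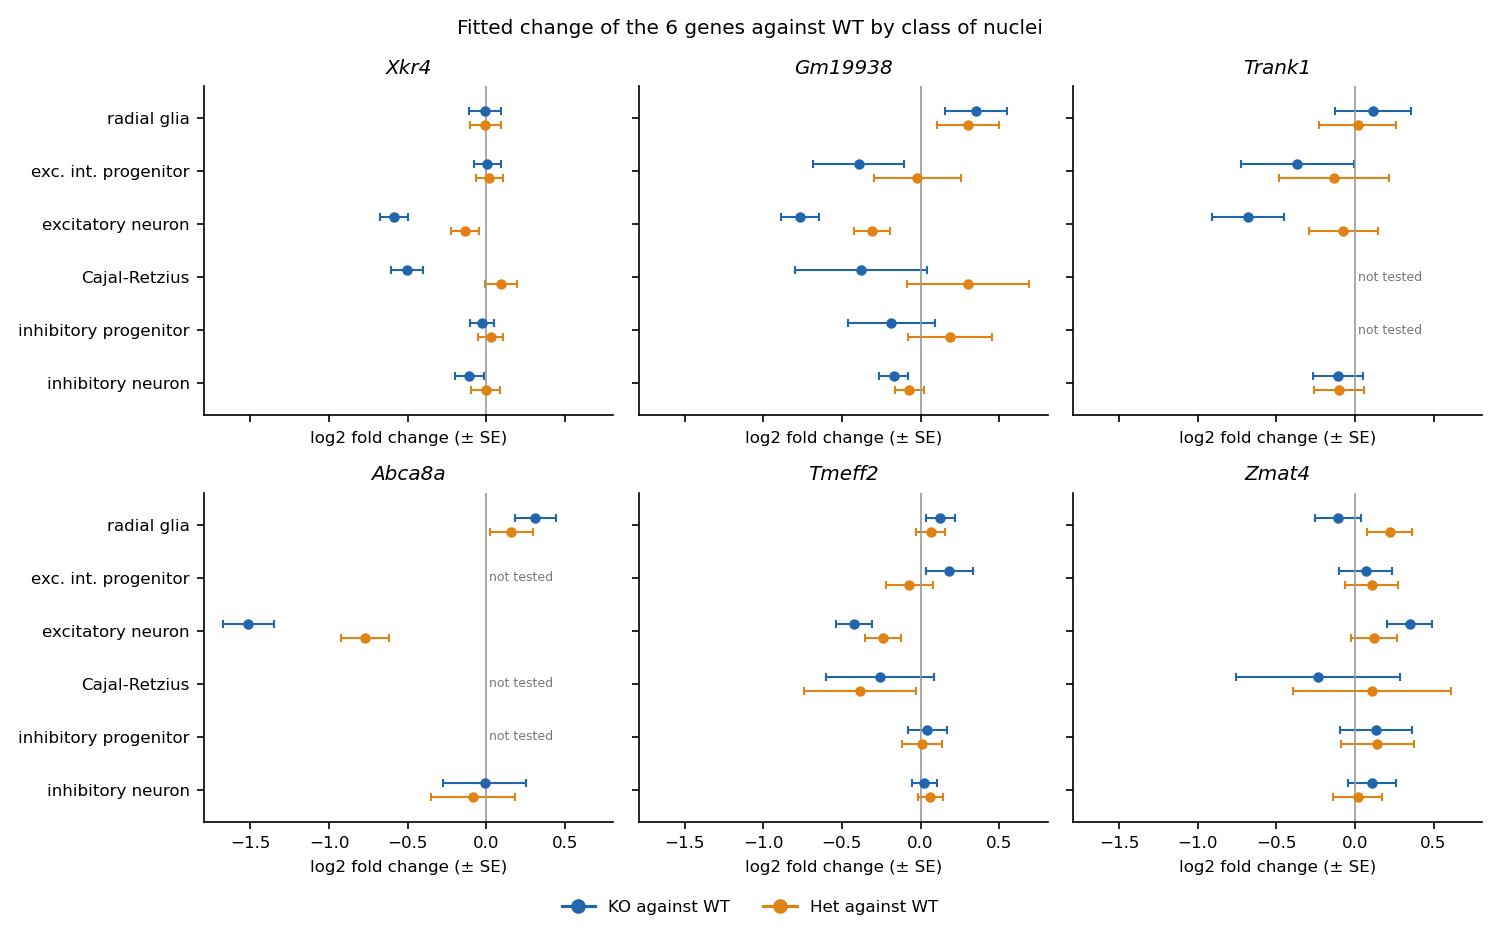
Log2 change of each of the 6 genes (x axis, KO against WT and Het against WT, with bars of 1 SE derived from the F statistic) in each class of nuclei (y axis) in which the gene passed the filter. The KO changes of Abca8a, Gm19938, Trank1, Xkr4 and Tmeff2 lie left of 0 in excitatory neuron-like nuclei (-1.51 to -0.42), and the same genes in inhibitory neuron-like nuclei lie between -0.17 and 0.02.

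Het against WT answers what 1 mutant copy did to the same genes. It was tested in every class in which a gene passed the filter on low counts, with the same WT embryos that entered the choice of the genes. No gene of the 6 was called in any of these classes, and 0.00% of all genes were called in Het in excitatory, inhibitory and Cajal-Retzius-like nuclei alike (643, 362 and 332 genes had an unadjusted p under 0.05 in edgeR, and DESeq2 called 0 in each). Abca8a in excitatory neuron-like nuclei had the largest difference: its Het mean was 58.1% of the WT mean, lower in 3 of 3 embryos, with a log2 change of -0.77 ± 0.15 (edgeR quasi-likelihood test, adjusted p = 1.00). With the replicate number as a block it was -0.78 ± 0.11 and was called (edgeR, adjusted p = 0.00136), as 1 of 6 genes called lower, which is 0.0323% of the genes tested. Another of these 6 was Xist (-7.48), which was high in WT embryo 3 alone. In the fit without the block the Het log2 change of Abca8a was -0.74 without that embryo and -0.77 with it, and was called in neither. The blocked fit was not run without it. Within the same-numbered pairs Het Abca8a was at 67.0%, 57.8% and 49.1% of WT.

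The other genes were closer to WT in Het excitatory neuron-like nuclei. Gm19938 had a log2 change of -0.31 ± 0.12 (edgeR, adjusted p = 1.00) and was at 76.2%, 74.0% and 88.6% of the same-numbered WT embryos. Tmeff2 had -0.24 ± 0.11 (edgeR, adjusted p = 1.00) and was at 80.2%, 83.3% and 88.0%. Both were lower in 3 of 3 pairs, although the ranges of Het and WT overlapped. The share of all genes lower in 3 of 3 pairs was not counted. The WT values in these pairs also entered the choice of the genes, which favours genes high in them. Xkr4 had -0.14 ± 0.086 and was lower in 2 of 3 pairs, Trank1 -0.07 ± 0.22 and lower in 1 of 3, and Zmat4 0.12 ± 0.15. None of these was called with the block either. Before adjustment, Abca8a and Gm19938 had a p under 0.05.

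In Cajal-Retzius-like nuclei Xkr4 had a Het log2 change of 0.09 ± 0.10, and in inhibitory neuron-like nuclei of -0.0028 ± 0.093. KO set against Het gives the other step of the same series and is a description, since the KO embryos chose the genes. In excitatory neuron-like nuclei that log2 change was -0.74 ± 0.17 for Abca8a, -0.46 ± 0.12 for Gm19938, -0.60 ± 0.23 for Trank1, -0.45 ± 0.087 for Xkr4, -0.18 ± 0.11 for Tmeff2 and 0.23 ± 0.14 for Zmat4. For Xkr4 in Cajal-Retzius-like nuclei it was -0.60 ± 0.10. For Abca8a the steps from WT to Het and from Het to KO were thus of like size on the log2 scale, while for Xkr4 and Trank1 the second was the larger in the estimates.

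Whether the Het effect differed between inhibitory and excitatory neuron-like nuclei was tested with an interaction term, and 0.00% of 19706 genes were called (652 had an unadjusted p under 0.05). For Tmeff2 the Het change was higher in inhibitory than in excitatory neuron-like nuclei by 0.31 ± 0.076 on the log2 scale (edgeR quasi-likelihood test, adjusted p = 1.00). For Abca8a it was higher by 0.69 ± 0.26 (edgeR, adjusted p = 1.00) and for Gm19938 by 0.25 ± 0.10 (edgeR, adjusted p = 1.00). Xkr4 had 0.14 ± 0.075, Trank1 -0.02 ± 0.10 and Zmat4 -0.11 ± 0.17. None of the 6 differences was called. The WT excitatory neuron-like values in this test also entered the choice of the genes, which favours genes high in them, so the direction of these differences is not independent of that choice.

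Gm19938 and Xkr4 were set against each other in both neuron classes. Per 100 Xkr4 UMIs, the Gm19938 UMIs in excitatory neuron-like nuclei were 4.50 ± 0.29 in WT, against 3.99 ± 0.48 in Het and 3.97 ± 0.25 in KO. In inhibitory neuron-like nuclei they were 4.27 ± 0.44, 4.08 ± 0.35 and 4.08 ± 0.19. Every KO embryo lay below every WT embryo in the excitatory class (3.68 to 4.15 against 4.27 to 4.82), and the ranges overlapped in the inhibitory class. The excitatory KO and WT values entered the choice of both genes, so the ratio there is not independent of it. KO also lay below WT in excitatory intermediate progenitor-like nuclei (2.43 to 4.09 against 4.27 to 5.23). In radial glia-like nuclei KO lay above WT (4.58 to 4.94 against 3.19 to 3.98). WT Gm19938 was at only 2.92 and 2.80 CPM in these 2 classes. The ranges overlapped in inhibitory progenitor-like and Cajal-Retzius-like nuclei. Gm19938 was detected mostly where Xkr4 was: of the excitatory neuron-like nuclei with a Gm19938 UMI 81.3% also had Xkr4, against 44.7% of all, and of the inhibitory ones 92.2% against 72.5%. These shares are a description, since nuclei with more UMIs are likelier to show any gene. Reads from unspliced Xkr4 RNA pass through the Gm19938 interval on the same strand, so the 2 counts are not independent, and the sources used here do not say how reads were assigned between them.

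Other annotated transcripts inside Xkr4 were read the same way in excitatory neuron-like nuclei. Gm38148, on the same strand, was at 7.89 ± 1.19 CPM in WT, against 7.70 ± 0.45 in Het and 4.88 ± 0.19 in KO, and was called lower (log2 change -0.66 ± 0.13, edgeR quasi-likelihood test, adjusted p = 0.0161). Gm37363, Gm37180, Gm37329 and Gm37686, also on that strand, had log2 changes of -0.53, -0.48, -0.55 and -0.43 and were not called in the fit without the replicate block. Gm1992 on the opposite strand had -0.31. They share ground with Xkr4 and are not independent of it. Outside, the nearest tested gene, Gm37381, 234 kb away, had -0.02 ± 0.45.

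The other members' neighbours in the same class were not called without the replicate block. With it, 4 neighbours were called, counted over all members and with those inside Xkr4 included. Next to Abca8a, its paralog Abca9, 4.77 kb away, had a log2 change of -0.76 ± 0.23 from levels of 1.6 ± 0.18 CPM in WT and 0.92 ± 0.078 in KO (edgeR quasi-likelihood test, adjusted p = 0.119), and its paralog Abca8b, 29.8 kb away on the other side, one of 0.16 ± 0.16. The 3 are close relatives, and reads that fit more than 1 of them make their counts uncertain. Gm28320, inside a Tmeff2 intron on the same strand, had -0.59 ± 0.17 (edgeR, adjusted p = 0.110) and was called with the block. Epm2aip1 and Dclk3 beside Trank1 had -0.17 and -0.18, and Sfrp1 and Ido2 beside Zmat4 -0.0041 and -0.64.

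Relatives of the 6 genes in the same families lay on both sides of 0. In KO excitatory neuron-like nuclei the other 4 XK-related genes tested gave 0 calls, with a median log2 change of -0.03 against -0.01 over all genes, and 1.95% of all genes were called in either direction. Of the 11 other ABCA transporters, Abca1, which exports cholesterol from cells, was called higher (0.59 ± 0.12, edgeR, adjusted p = 0.0255) and Abca5 lower (-0.28 ± 0.067, edgeR, adjusted p = 0.0466), and the median was -0.08. Of the 11 other follistatin-domain genes, Fstl1, a secreted follistatin-like protein, was called higher (0.36 ± 0.081, edgeR, adjusted p = 0.0377), with a median of -0.03. Of the 9 other genes with double-stranded RNA zinc fingers none was called, with a median of -0.04. With the block Abca7 and Zfp385b were also called higher (0.29 and 0.50) and Zfp385a and Spock2 lower (-0.66 and -0.40), where 8.19% of all genes were called in either direction. The nearest relatives Xkr6, Xkr7, Tmeff1 and Zmat3 had -0.01, 0.08, 0.01 and -0.03.

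Genes of the neuronal programme around the 6 were read from 2 further lists. Of 12 early neuronal genes none was called in KO excitatory neuron-like nuclei (median -0.08), where 1.95% of all genes were called in either direction. With the replicate block 4 of the 12 were called, Unc5d and Eomes higher (0.29 and 0.26) and Tubb3 and Sox4 lower (-0.20 and -0.36), where 8.19% of all genes were called in either direction. Of 25 synapse and excitability genes, Grin1, the obligate subunit of NMDA receptors, was called lower (-0.85 ± 0.11, edgeR, adjusted p = 0.00139) and Gria4, an AMPA receptor subunit, higher (0.39 ± 0.071, edgeR, adjusted p = 0.0128), with a median of -0.02. In that fit without the block 1.95% of all genes were called in either direction. The block added Snap25, Lrrtm4 and Gria1 to those called higher (0.24, 0.23 and 0.25). In Cajal-Retzius-like nuclei Camk2b, a calcium-dependent kinase of synapses, was called lower (-0.92 ± 0.18, edgeR, adjusted p = 0.0445) and Nrxn3, a presynaptic adhesion molecule, higher (0.90 ± 0.15, edgeR, adjusted p = 0.0102), where 0.160% of all genes were called. With the block Gria1 was also called lower there (-0.77), where 0.676% of all genes were. In inhibitory neuron-like nuclei no gene of these lists was called, where 0.0111% of all genes were, and with the block Grin1 was called lower (-0.45, edgeR, adjusted p = 0.0144), where 0.697% were. In Het no gene of these lists was called in any of the 3 neuron classes, where 0.00% of all genes were.

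Outside the clusters named excitatory neuron-like, single clusters held the highest levels of several of the genes. Xkr4 was highest in the inhibitory neuron-like cluster led by Nxph2 and Dgkg, with means of 2649 CPM in WT, against 2619 in Het and 2361 in KO. Trank1 was highest in an unnamed cluster led by Car10, Snhg11 and Sim1 (127, 122 and 136 CPM). Zmat4 was high in the same unnamed cluster (167, 165 and 139 CPM) and in the inhibitory neuron-like cluster led by Gbx1 and Pde3a (172, 163 and 195 CPM). In all 4 instances the genotypes overlapped.

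The genes whose levels most resembled each of the 6 over 63 values (7 classes in 9 embryos) were named by Pearson's r of log2 CPM + 1, over 10149 candidate genes. These values share embryos and classes, so r is only a description. Xkr4 was most like Syt1 (0.95), a synaptic vesicle calcium sensor, and Gm38148 and Gm37363 from its own intron followed (0.94 and 0.93), then Meg3 (0.93) and Sntg1 (0.92). Gm19938 was most like Olfm3 (0.96), then Gm38148 (0.93), Gria4 (0.92), Hs6st3 (0.91) and Snhg14 (0.91). Abca8a was most like Cnih3 (0.84), an auxiliary subunit of AMPA receptors, and then Gm10115, Lmo7, Adamts18 and Nlgn1 (0.83 to 0.81).

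Tmeff2 was most like Tenm2 (0.88), a teneurin adhesion molecule, then Gm20754 (0.87), Sgcz, Gm48259 and Vstm2b (0.83 to 0.82). Zmat4 was most like Scn9a (0.86), a voltage-gated sodium channel, then Kctd16, Galnt13, Nell1 and Dnm1 (0.85 to 0.82). Trank1 was most like Ptprr (0.84), and then Cntnap5a, Ttc21b, A230006K03Rik and Cdh9 (0.82 to 0.81).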

How the data were processed

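Nuclei of 9 E14 forebrains (3 WT, 3 Het, 3 KO; 2 runs each, 18 libraries) had been profiled with the Scale Biosciences kit. The authors mapped reads to mm10 with the kit maker's pipeline and deposited matrices of estimated counts (expected counts) of UMIs per gene and nucleus, and 7.31% of entries are not whole numbers (Xkr4 7.74%, Gm19938 10.6%, Trank1 2.12%, Abca8a 7.72%, Tmeff2 4.20%, Zmat4 12.1%). The sources used here give neither the annotation release nor whether counting used strand, nor how the fractions arise. The submitters' processing notes also name Seurat 4.3.0, Scanpy 1.12.0 and DESeq2 1.38.3. The members of the set and all gene lists were chosen with earlier results of these data known.

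Barcodes were kept within the study's limits: UMIs from 800 to 6000, genes from 300 to 3000, a mitochondrial share of no more than 1%, and log(genes) divided by log(UMIs) no lower than 0.9 (200916 of 261143, 76.9%). Scrublet's automatic threshold marked under 0.5% of barcodes in 17 of 18 libraries. The 5% with the highest scores among all barcodes of each library were therefore marked instead. Of the barcodes within the limits, 6973 were marked and removed. Counts were clustered with scanpy 1.11.5 (3000 variable genes, 50 components, 20 neighbours, Leiden resolution 1), and clusters were named from marker lists, with at least 3 markers detected. Counts were summed per embryo and class over both runs, rounded, and fitted with edgeR 4.0.16 (R 4.3.3; TMM scaling, filterByExpr, quasi-likelihood test, all 3 genotypes in 1 fit), and p-values were adjusted by Benjamini-Hochberg over all genes of a class. The SE given with a fitted log2 change is the size of that change divided by the square root of the F statistic of its test. The fit was tested on simulated data. DESeq2 1.42.0, other scalings and filters, each run alone, each embryo left out and a replicate block were alternatives.

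Whether replicate numbers pair the embryos was checked once. The deviations of same-numbered embryos from their genotype means correlated at 0.24 to 0.66 in excitatory and 0.22 to 0.61 in inhibitory neuron-like nuclei. For embryos of other numbers the values were -0.50 to 0.19 and -0.52 to 0.070. The numbers were therefore used for the same-numbered pairs and for the alternative fit with a block. The main fit had genotype alone, as in the study, so its calls and adjusted p do not take the pairing into account. Since deviations are taken from the genotype mean, positive values for same-numbered embryos bring negative ones for the others by arithmetic, so the gap overstates the pairing. The labels do not say what a number shares.

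The text names the 6 genes, the 5 genes most like each (at least 20 CPM in 1 class), the called genes of each list, at most 4 per direction, listed relatives, overlapping and nearest genes, and Myt1l. Promoters came from RefSeq and positions from GENCODE vM21, matched by versioned identifier. In microglia and macrophage-like nuclei (21 to 44 per embryo) none of the 6 genes passed the filter on low counts.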

Additional observations from a re-analysis of the deposited data

Results flagged for a closer look

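Abca8a met the rule for a gene whose KO and WT embryos stand apart in opposite orders in 2 classes. In excitatory neuron-like nuclei all 3 KO embryos lay below all 3 WT embryos, with a log2 ratio of mean CPM of -1.51, and in radial glia-like nuclei all 3 KO embryos lay above all 3 WT embryos, with a log2 ratio of 0.30. The difference between the classes was not tested. The rule asks only for an order of embryos and was read over several genes and classes. How often chance alone meets it was not tested, and the share of all genes that meet it was not counted. The radial glia-like order is therefore given as a description and not as an effect of genotype. The excitatory contrast is one of those that chose the gene, and the fit in radial glia-like nuclei did not call it (edgeR quasi-likelihood test, adjusted p = 1.00).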

How the results depend on the processing

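The limits are those of 3 embryos per genotype, of sparse genes (Trank1 and Abca8a in Cajal-Retzius-like nuclei) and of run 1, which alone called 2 genes in KO excitatory neuron-like nuclei. In excitatory neuron-like nuclei the direction of all 6 genes in KO against WT was the same under every alternative run, and Abca8a, Xkr4 and Gm19938 were called in 19 of 20 settings, the exception being run 1 alone, where Abca8a had -1.0. Tmeff2 was called there in 5 of 20 settings, Trank1 in 2 of 20 and Zmat4 in 0, and Xkr4 in Cajal-Retzius-like nuclei in 8 of 19. These directions and calls are of the contrast that chose the genes. They show only how the description depends on the processing and are no support for it. Abca8a in Het was called with no filter on low counts (-0.77, edgeR, adjusted p = 4.82e-06), which makes 1 gene of the 6, and no other of the 6 was called in Het or in the other classes in KO.

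Counts of calls moved more. With the main count first, genes called in KO excitatory neuron-like nuclei went from 362 to 859 with no filter, and 131 to 476 with 1 embryo left out (131 without KO 2, 159 without WT 3, 169 without WT 1 or WT 2, 228 without KO 1). In Cajal-Retzius-like nuclei 14 went to 27 with DESeq2, 100 with no filter, 24 in run 2 alone, 69 with no upper limits on nuclei and 4 to 31 with 1 embryo left out (4 without WT 1, 5 without KO 2, 31 without KO 1). In inhibitory neuron-like nuclei 2 went to 29 with DESeq2, 112 with no filter, 0 with only the compared embryos, 5 in run 2, 0 in run 1, 11 with no upper limits, 6 with no doublet removal, 4 at clustering resolution 0.5 and 0 to 2 with 1 embryo left out. In Het excitatory neuron-like nuclei 0 went to 53 with no filter and 0 to 2 with 1 embryo left out. Of the gene lists in excitatory neuron-like nuclei, with KO and Het calls added, 5 calls of genes other than the 6 became 3 with no TMM scaling and 12 with no filter. They became 3 with only the compared embryos, 2 in run 2, 0 in run 1 and 1 to 6 with 1 embryo left out (1 without WT 2 or WT 3). The 1 called neighbour, counted in the same way, became 2 with no filter, 0 in run 1 and 0 to 1 with 1 embryo left out (0 without KO 2, WT 1 or WT 3). The 4 genes lower in KO Cajal-Retzius-like nuclei were 1 without WT 1. The cause of these moves was not tested.

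With the replicate block the same counts were 1523, 59, 125, 6, 16 and 4, Abca8a was the 1 gene of the 6 called in Het, and no other call among the 6 beyond those given beside the results changed.

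Beside the sign changes in Cajal-Retzius-like nuclei, which are given with the results, reversals concerned uncalled values. Trank1 in Het excitatory neuron-like nuclei was 0.0466 in run 1 alone and -0.287 to 0.202 with 1 embryo left out, and Zmat4 there -0.0035 to 0.22. In KO inhibitory neuron-like nuclei Abca8a was 0.0032 with DESeq2 and -0.17 to 0.23 with 1 embryo left out, Tmeff2 -0.0062 with no TMM scaling, -0.063 in run 1 and -0.0542 to 0.0992, Trank1 -0.27 to 0.10 and Zmat4 -0.027 to 0.244. The Het difference of Trank1 between inhibitory and excitatory neuron-like nuclei ran from -0.0895 to 0.0315.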
